A study of Mus musculus with 42 samples.

Results

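The 29 genes described here encode the enzymes that build cholesterol, the SREBP factors that control their transcription with the proteins that hold SREBP in check, a sterol carrier, and fatty acid desaturases and an elongase that SREBP also drives. They were listed by name, with earlier results of these data known. Both deposited count tables hold all 29, among 24421 gene entries for whole brain and 53546 for cortex and hippocampus. The 42 libraries are bulk RNA sequencing of microglia, the resident macrophages of the brain, isolated from C57BL/6 mice on a density gradient and by sorting for CD11b+ CD45lo cells. Whole-brain microglia came from wild-type mice aged 6 to 12 weeks, of which 3 had a specific-pathogen-free microbiota (SPF) and 5 were germ-free (GF). Cortex microglia came from wild-type mice aged 16 weeks that were SPF, GF, or GF with acetate added to the water they drank (n = 4 each). Hippocampus microglia came from wild-type mice (4 SPF, 3 GF and 4 GF with acetate) and from 5xFAD mice (4, 3 and 4), also aged 16 weeks. 5xFAD mice are a model of familial Alzheimer disease whose human transgenes are expressed from the neuronal Thy1 promoter, so the transgenes are not driven in microglia. Acetate, a short-chain fatty acid made by gut bacteria, was given for 8 weeks to GF wild-type and 5xFAD mice per the labels, which also mention a group treated for 4 weeks that they do not tie to a library. Libraries are named by condition and animal number (SPF1, GF529, and GFA518 for acetate), and 11 wild-type animals gave both a cortex and a hippocampus library.

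Cholesterol is built from acetyl-CoA through mevalonate, farnesyl diphosphate, squalene and lanosterol. When sterols are scarce in the endoplasmic reticulum, SCAP carries SREBP proteins to the Golgi, where proteases free the part that activates transcription. When sterols are plentiful, INSIG proteins retain SCAP and the synthesis genes are less transcribed. Brain cholesterol is made within the brain, and microglia also take up lipid from myelin and dying cells, which oxysterol-sensing LXR receptors answer by raising export genes. Acetate can be turned into acetyl-CoA, the starting material of the pathway.

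Total counts per library, in mega-counts (M), ran from 19.33 to 25.37 M in whole brain, 15.79 to 23.86 M in cortex and 5.74 to 22.53 M in hippocampus, where wild-type SPF4 and 5xFAD SPF2142 were the shallow libraries. Levels are given as CPM, counts relative to the library total after TMM scaling. Microglial markers summed to between 36720 and 69850 CPM in every library, while astrocyte markers summed to 193 to 473 CPM, oligodendrocyte markers to 139 to 204 CPM and endothelial markers to 10.54 to 44.5 CPM. Of the endothelial list Cldn5 and Ly6c1 were at or near 0 (group means up to 0.0169 CPM), and Pecam1 had group means of 15.3 to 39.9 CPM. The neutrophil markers summed to at most 16.9 CPM in cortex but reached 173 CPM in whole-brain GF4, 226 CPM in hippocampus GF532 and 258 CPM in 5xFAD SPF2153. Hippocampus GF530 held the lowest value of its group for 13 of the 21 genes of the module that averaged at least 5 CPM there. Hippocampus GFA518 stood apart from its group, with 16607 genes detected against 19142 to 19483 in the other 3, and a chi-square per degree of freedom of 51.84 to 56.11 against them, while those 3 differed from each other by 20.93 to 27.07. In bulk libraries fewer cells of a type and less RNA per cell cannot be told apart.

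Levels within the module ran from 0 to 51.5 CPM per kb of exon in SPF groups (plot of levels per kb). Averaged over groups, 14 of 29 genes lay between 5 and 50 CPM in whole brain, 17 in cortex and 18 in hippocampus, and 6, 5 and 4 genes lay at 50 CPM or more. Per kb of exon, Ebp, the sterol isomerase of the last stretch of the pathway, had the highest SPF level in whole brain (51.5 ± 3.97 CPM per kb in whole brain, 25.7 ± 1.64 in cortex, 28.9 ± 3.41 in hippocampus, SD, n = 3, 4 and 4). Fads1, which desaturates polyunsaturated fatty acids, followed in whole brain and led in cortex and hippocampus (32.5 ± 2.25, 39.6 ± 5.58 and 29.5 ± 3.67 CPM per kb); in hippocampus it and Ebp differed by less than their spread. Scd2, a stearoyl-CoA desaturase, had 23.97 ± 4.27, 26.1 ± 9.01 and 21.9 ± 4.5 CPM per kb, and in cortex it and Ebp also differed by less than their spread. Insig2, which retains SCAP, lay above Scd2 in whole brain and below it in cortex and hippocampus, with 28.2 ± 0.981, 14.98 ± 1.61 and 15.2 ± 2.83 CPM per kb, and above its relative Insig1 in every tissue (1.97 ± 0.708, 2.26 ± 1.02 and 2.22 ± 1.25). Among mevalonate enzymes Hmgcs1, the HMG-CoA synthase, had 9.09 ± 0.452, 6.18 ± 1.78 and 4.93 ± 0.883 CPM per kb, and the isomerase Idi1 only 0.138 ± 0.143, 0.270 ± 0.141 and 0.337 ± 0.200. The squalene epoxidase Sqle was also low, with 0.195 ± 0.0930, 0.557 ± 0.104 and 0.545 ± 0.141 CPM per kb.

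The desaturase paralogues were unequal: Scd1 had 0 reads in all SPF cortex and hippocampus libraries, which allows at most 0.523 CPM in the shallowest library, while Scd2 stood above 84 CPM in every library. Fads2, the partner of Fads1 in making long polyunsaturated fatty acids, had 0 reads in the whole-brain SPF libraries and averaged 0.233 ± 0.192 CPM in SPF cortex and 0.847 ± 0.9753 CPM in SPF hippocampus. These floors cover counting error only. Summed over the 18 enzymes from Acat2 to Dhcr7, SPF microglia had 414 ± 6.72 CPM in whole brain, 269.8 ± 17.7 in cortex and 278 ± 6.19 in wild-type hippocampus. The whole-brain table was normalised on its own, so its levels are given beside the others and not compared.

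**Figure D1:**
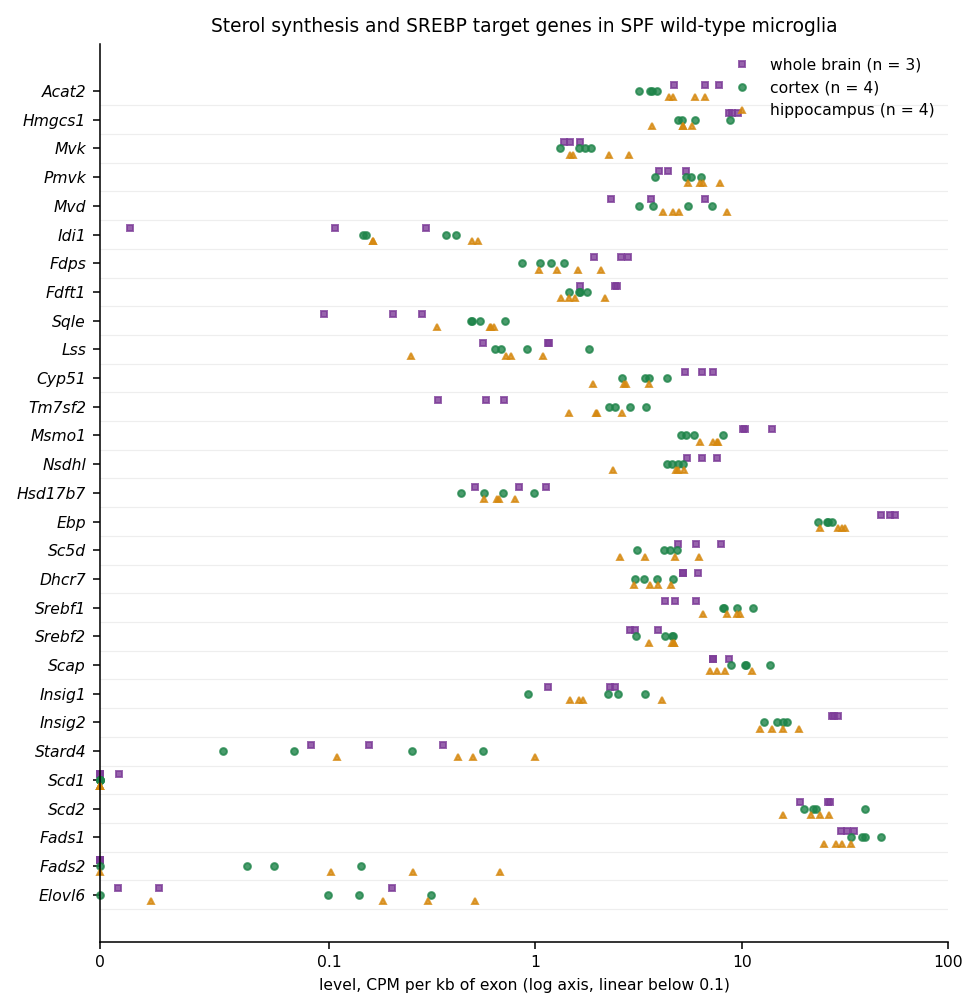
Level of each of the 29 genes in SPF wild-type microglia, in CPM per kb of exon on a log axis that is linear below 0.1; each point is 1 library of whole brain, cortex or hippocampus. Ebp, Fads1, Scd2 and Insig2 lie to the right, and Scd1, Fads2, Idi1, Stard4 and Elovl6 to the left.

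SREBP binds sterol regulatory elements in promoters, usually beside sites for NF-Y, which reads CCAAT, and Sp1. RefSeq promoter windows of build GRCm38.p6, from 250 bases before to 50 after a start site, matched 22 of the 29 genes with 30 windows. The letters TCACNCCAC, a core of the sterol regulatory element searched on both strands, occurred in 1 of the 30 windows, that of Hmgcs1, and in 1.24% of all 32851 windows. CCAAT occurred on either strand in 19 of 30 windows and in 37.4% of all, and GGGCGG, the core Sp1 letters, in 24 of 30 and 35.7% of all. The windows of Hmgcs1 (chr13:119690101-119690400, plus strand), Mvk (chr5:114444019-114444318, plus), Srebf2 (chr15:82147019-82147318, plus), Dhcr7 (chr7:143829964-143830263, plus, 1 of 3 windows), Ebp (chrX:8193463-8193762, minus) and Insig2 (chr1:121332540-121332839, minus, 1 of 3 windows) are shown because Hmgcs1 held the sterol element and the other 5 each passed in a comparison below. Fads1 and Scd2, which also passed below, were among the 7 genes without a window, and the windows of Scap, called between regions, are not shown. Capitals mark TCACNCCAC in Hmgcs1 and CCAAT, or ATTGG on the other strand, in all 6; for Dhcr7 and Insig2 the window shown was chosen because it holds CCAAT, which neither of their other 2 windows does.
Hmgcs1: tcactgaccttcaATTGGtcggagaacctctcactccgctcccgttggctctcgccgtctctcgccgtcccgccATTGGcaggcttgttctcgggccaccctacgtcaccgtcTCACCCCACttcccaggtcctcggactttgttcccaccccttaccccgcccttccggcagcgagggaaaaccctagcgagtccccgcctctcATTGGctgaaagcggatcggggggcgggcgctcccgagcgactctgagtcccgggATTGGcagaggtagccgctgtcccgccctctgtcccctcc
Mvk: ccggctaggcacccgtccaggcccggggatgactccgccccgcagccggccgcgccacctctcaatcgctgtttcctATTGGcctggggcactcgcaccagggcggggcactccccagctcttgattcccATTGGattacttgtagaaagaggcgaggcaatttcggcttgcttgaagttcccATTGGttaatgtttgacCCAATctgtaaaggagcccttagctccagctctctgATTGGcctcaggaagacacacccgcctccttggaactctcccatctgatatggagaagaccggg
Srebf2: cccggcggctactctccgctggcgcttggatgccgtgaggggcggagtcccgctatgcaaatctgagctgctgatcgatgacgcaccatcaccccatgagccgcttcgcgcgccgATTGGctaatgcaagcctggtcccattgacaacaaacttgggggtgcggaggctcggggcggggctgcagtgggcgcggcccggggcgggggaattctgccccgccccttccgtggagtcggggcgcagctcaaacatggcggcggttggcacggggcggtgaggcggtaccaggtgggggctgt
Dhcr7: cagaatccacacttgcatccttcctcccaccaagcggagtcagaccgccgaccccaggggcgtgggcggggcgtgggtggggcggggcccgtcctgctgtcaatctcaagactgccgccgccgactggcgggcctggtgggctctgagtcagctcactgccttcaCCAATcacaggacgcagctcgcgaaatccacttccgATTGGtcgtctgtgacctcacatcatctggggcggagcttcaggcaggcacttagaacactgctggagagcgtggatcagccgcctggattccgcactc
Ebp: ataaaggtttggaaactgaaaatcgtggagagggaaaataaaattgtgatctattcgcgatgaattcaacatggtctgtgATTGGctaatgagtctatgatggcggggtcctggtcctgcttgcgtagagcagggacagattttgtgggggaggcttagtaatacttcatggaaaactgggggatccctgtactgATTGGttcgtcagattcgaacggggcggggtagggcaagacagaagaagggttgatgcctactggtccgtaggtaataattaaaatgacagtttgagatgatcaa
Insig2: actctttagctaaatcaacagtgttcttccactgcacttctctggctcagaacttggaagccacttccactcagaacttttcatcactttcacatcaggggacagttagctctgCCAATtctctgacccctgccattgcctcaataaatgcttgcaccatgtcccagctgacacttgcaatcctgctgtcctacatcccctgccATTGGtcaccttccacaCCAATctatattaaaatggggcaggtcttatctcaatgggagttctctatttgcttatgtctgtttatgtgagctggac
A match in these windows is a description of letters, and the binding of no factor was measured.

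In whole brain, none of the 26 genes tested passed between GF and SPF microglia (edgeR quasi-likelihood test, Benjamini-Hochberg adjusted p under 0.05), against 1.99% of all 11332 genes; 2 had an unadjusted p under 0.05 and DESeq2 called 0. Their median log2 difference was 0.01, and all genes had a median of 0.00. The 95% interval stayed within 2-fold for 19 of the 26 and within 1.5-fold for 13. Scd2 had 145, 144 and 104 CPM in SPF and 146, 169, 161, 172 and 171 CPM in GF libraries. It was the 1 gene of the module whose groups did not overlap here, and the share of all genes without overlap was not computed. Its log2 difference was 0.32 (95% interval 0.10 to 0.54, adjusted p = 0.139, edgeR). Lss, the lanosterol synthase, had 12.6, 6.01 and 12.4 CPM in SPF and 5.64, 4.34, 8.21, 3.94 and 2.09 CPM in GF (log2 -1.08, -1.87 to -0.29, adjusted p = 0.16), and the groups overlapped. Dhcr7, which makes cholesterol in the last step of the pathway, had 30.02, 30.02 and 35.6 CPM in SPF and 25.2, 32.7, 40.01, 31.8 and 20.8 CPM in GF. Its log2 difference was -0.08 (-0.47 to 0.31). For Fads1 the difference was 0.05 (-0.12 to 0.22) and for Hmgcs1 0.09 (-0.14 to 0.33).

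In cortex, GF microglia had less Fads1 and no other gene of the module passed: 1 of 28 tested was called lower and 0 higher, against 1.71% of all genes called. Fads1 had 227, 185, 190 and 162 CPM in SPF, 142, 129, 164 and 129 CPM in GF and 181, 162, 187 and 189 CPM in GF mice given acetate. The GF libraries lay below the SPF ones except that GF530 exceeded SPF4. Fads1 fell by 0.44 on the log2 scale in GF (SE 0.11, 1.35-fold, adjusted p = 0.0495, edgeR). The call was lost with RLE size factors, in a fit of the SPF and GF groups alone, and without any of SPF1, SPF2, SPF3, GF528, GF529 or GF532, with adjusted p from 0.00855 to 0.15 over the alternatives. Against GF, acetate-treated mice had 0.35 more Fads1 on the log2 scale (0.12 to 0.58), which did not pass (adjusted p = 0.159), and against SPF the difference was -0.09 (-0.32 to 0.14). These 3 comparisons share libraries pairwise, so they are not independent of each other.

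Dhcr7 was the sterol enzyme with the largest cortex difference. It had 26.99, 19.4, 17.7 and 22.6 CPM in SPF, 16.5, 9.53, 14.6 and 10.1 CPM in GF, and 10.01, 10.48, 10.2 and 11.3 CPM with acetate. Every GF and every acetate library lay below every SPF library. Dhcr7 fell by 1.05 on the log2 scale in acetate-treated GF mice against SPF (SE 0.20, 2.07-fold, adjusted p = 0.0234), the 1 of 28 genes called there, against 0.364% of all genes. Adjusted p ran from 0.000142 to 0.098 over the alternatives, and the call was lost without any of SPF1, SPF2, SPF4 or each of the 4 acetate libraries. Between GF and SPF the log2 difference was -0.78 (-1.20 to -0.36) and just missed the threshold (adjusted p = 0.0581); DESeq2 called it. Acetate against GF left Dhcr7 at -0.27 (-0.70 to 0.15).

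Of the 18 sterol enzymes 9 had a positive and 9 a negative difference between GF and SPF cortex, and none passed (edgeR; 4 at an unadjusted p under 0.05; DESeq2 called Dhcr7 and Acat2). Hmgcs1 was at -0.16 (-0.56 to 0.23) and Sqle at -0.02. Acat2, the thiolase that joins acetyl-CoA units, had 8.12, 9.91, 9.30 and 9.15 CPM in SPF, 15.2, 12.3, 13.8 and 12.9 CPM in GF and 11.96, 12.41, 12.99 and 11.92 CPM with acetate. No SPF library reached any GF or acetate library (GF against SPF log2 0.57, 0.23 to 0.92, adjusted p = 0.0924, edgeR; DESeq2 called it). Fdps, the farnesyl diphosphate synthase, had 4.43, 5.81, 5.00 and 3.63 CPM in SPF and 7.27, 6.03, 8.29 and 7.04 CPM in GF, also without overlap (0.60, 0.11 to 1.09, adjusted p = 0.242). Fdft1, the squalene synthase, differed by 0.51 (0.01 to 1.02), but its exons overlap those of the cathepsin gene Ctsb on the other strand, and whether counting used strand is not given in the sources used here. Acat2, Fdps and Dhcr7 were the 3 genes of the module without overlap between GF and SPF cortex. The share of all genes without overlap was not computed, so this count cannot be set against it. Scd2 had 216, 120, 109.7 and 125 CPM in SPF and 198, 170.3, 178 and 214 CPM in GF. SPF1 lay above all GF libraries and the other SPF libraries below them (0.42, 0.06 to 0.77, adjusted p = 0.259). Acetate against GF called 0 of 28 genes with either tool, 1 at an unadjusted p under 0.05, against 0.973% of all genes, and 22 of 28 intervals stayed within 2-fold. The 18 sterol enzymes summed to 269.8 ± 17.7 CPM in SPF, 270.7 ± 22.8 in GF and 279 ± 5.70 with acetate. Border macrophage markers summed to 20.8 to 35.5 CPM in SPF cortex, 8.78 to 11.4 CPM in GF and 6.81 to 13.4 CPM with acetate, and Mrc1, 1 of 2 tested, was called lower in GF and with acetate against SPF. Microglial markers summed to 45620 to 58090 CPM in SPF, 41040 to 45850 CPM in GF and 49470 to 54430 CPM with acetate. Astrocyte markers summed to 305 to 393 CPM, 354 to 469 CPM and 232 to 329 CPM in the same order, and Slc1a3 was called lower with acetate against GF, 1 of 6 tested. The part of these 3 lists in the Fads1 and Dhcr7 results was not tested.

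**Figure D2:**
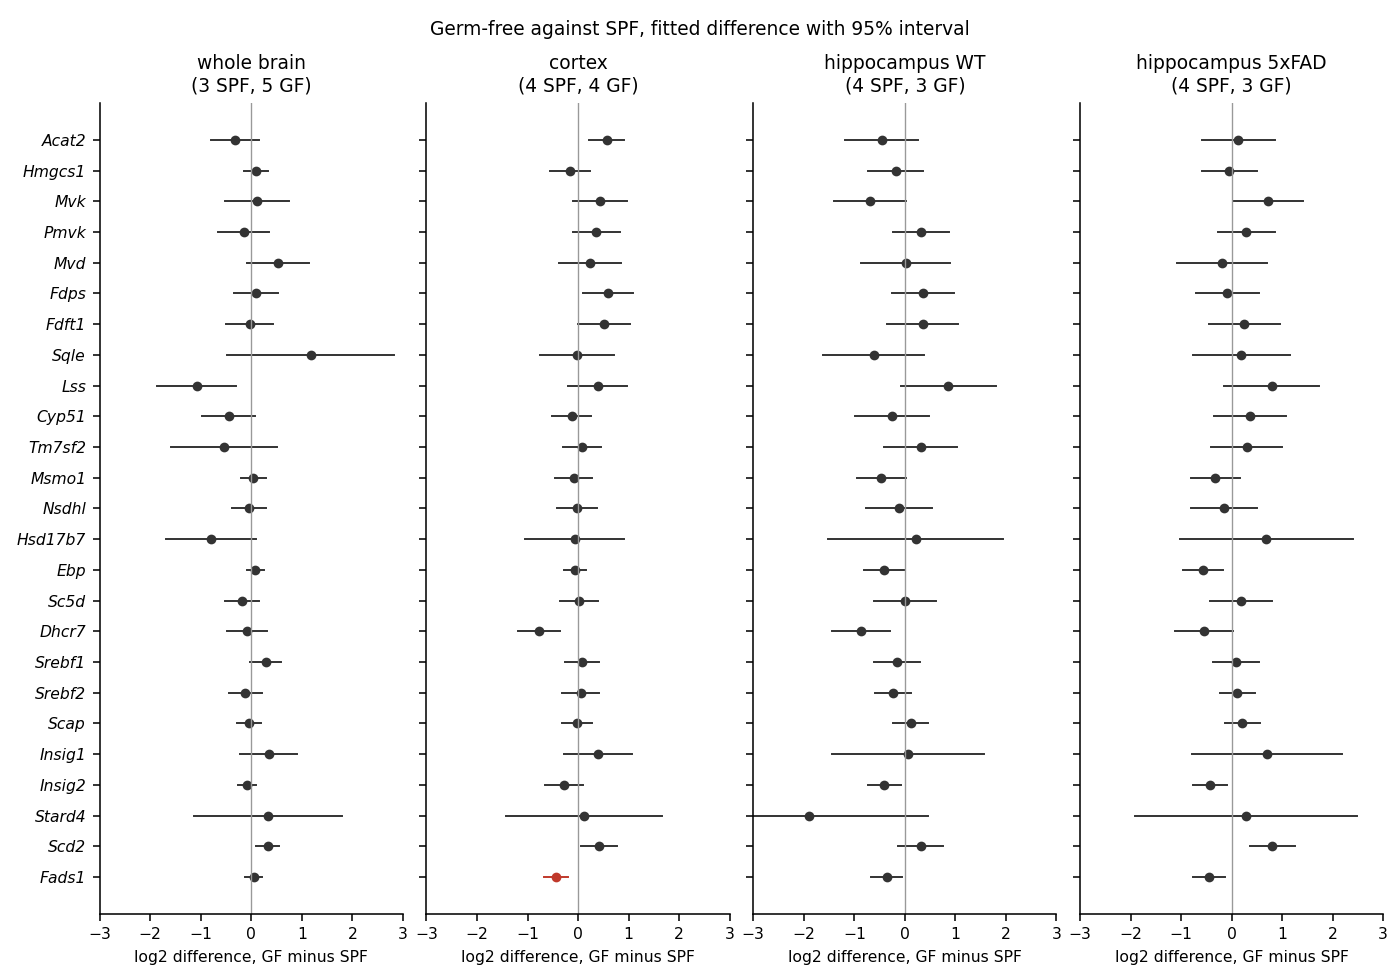
Fitted log2 difference, GF minus SPF, with its 95% interval for 25 genes in whole brain, cortex, wild-type hippocampus and 5xFAD hippocampus; Idi1, Scd1, Fads2 and Elovl6 are near 0 CPM and are not drawn. Cortex Fads1, in red, is the 1 difference that passed the adjusted threshold, and Dhcr7 and Fads1 lie left of 0 in cortex and both hippocampus panels.

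In hippocampus no gene of the module passed between GF and SPF within either genotype. In wild type 0 of 28 were called by edgeR and 1, Elovl6, by DESeq2, with 5 at an unadjusted p under 0.05, against 0.727% of all genes called. In 5xFAD 0 of 28 were called by edgeR and 1, Scd2, by DESeq2, with 5 at an unadjusted p under 0.05, against 1.82% of all genes. Intervals were wide: within 2-fold for 15 of 28 genes in wild type and 14 of 28 in 5xFAD. The interaction of genotype with GF status called 0 of 28 genes and 0% of all genes (edgeR; DESeq2 called 0 of the 28), with 2 genes of the module at an unadjusted p under 0.05, Mvk and Elovl6.

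Dhcr7 had 26.5, 20.8, 22.9 and 17.5 CPM in wild-type SPF and 12.9, 13.9 and 8.79 CPM in wild-type GF libraries. In 5xFAD it had 12.6, 15.7, 18.8 and 24.3 CPM in SPF and 12.1, 11.4 and 13.1 CPM in GF. The wild-type groups did not overlap (log2 -0.87, -1.44 to -0.29, adjusted p = 0.159) and the 5xFAD groups did (-0.55, -1.11 to 0.02, adjusted p = 0.454). Fads1 had 162, 148, 120.1 and 138 CPM in wild-type SPF and 112, 111 and 106 CPM in GF. In 5xFAD it had 150.0, 113, 152 and 146 CPM in SPF and 109, 87.2 and 111 CPM in GF, and no GF library reached an SPF library of its genotype. Insig2 had 42.5, 65.6, 54.7 and 48.9 CPM in wild-type SPF against 39.8, 36.8 and 41.5 CPM in GF. In 5xFAD its values were 51.9, 47.5, 49.3 and 46.9 CPM in SPF against 38.8, 31 and 38.3 CPM in GF, again without overlap in either genotype. Ebp had 55.4, 73.1, 67.8 and 70.8 CPM in wild-type SPF and 59.0, 33.6 and 56.1 CPM in GF. Its 5xFAD values were 79.3, 69.6, 59.5 and 64.9 CPM in SPF and 51.9, 45.0 and 40.6 CPM in GF, so that only the 5xFAD groups were apart. Msmo1, the methyl oxidase that trims lanosterol, had 46.9, 38.5, 44.4 and 46.5 CPM in wild-type SPF and 34.5, 28.5 and 31.7 CPM in GF. In 5xFAD it had 42.1, 51.4, 48.7 and 46.9 CPM in SPF and 39.9, 37.8 and 34.7 CPM in GF, without overlap in either genotype (log2 -0.46, -0.95 to 0.02, and -0.32, -0.81 to 0.16). In all, 5 of 29 genes lay wholly below SPF in wild-type GF (Dhcr7, Fads1, Insig2, Msmo1 and Elovl6) and 1 above (Lss). In 5xFAD GF 4 lay below (Fads1, Insig2, Msmo1 and Ebp) and 2 above (Scd2 and Mvk). The share of all genes without overlap was not computed, so whether these counts exceed it cannot be told. The 0.727% and 1.82% of all genes called rest on adjusted p and do not measure overlap.

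Scd2 differed the other way in 5xFAD, with 94.8, 84.4, 133 and 124 CPM in SPF and 197, 188 and 183 CPM in GF. These groups did not overlap, and the log2 difference of 0.81 (0.37 to 1.25) missed the threshold (adjusted p = 0.0504, edgeR; called by DESeq2, with RLE size factors, and without SPF2152). In wild type Scd2 had 131, 86.6, 144 and 118 CPM in SPF and 186, 97.7 and 159 CPM in GF, with overlap. Elovl6, which elongates saturated fatty acids, had between 0 and 1 read in each wild-type GF library, against 0.144 to 3.27 CPM in SPF, and no fold is given at these counts.

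When GF was compared with SPF averaged over both genotypes, a contrast chosen after seeing the data, 5 of 28 genes passed, against 4.67% of all genes. Lower in GF were Dhcr7 (log2 -0.71, SE 0.20, adjusted p = 0.0355), Ebp (-0.49, SE 0.14, 0.0379), Insig2 (-0.42, SE 0.11, 0.0293) and Fads1 (-0.40, SE 0.11, 0.0266), in edgeR's test. Scd2 was higher (0.56, SE 0.15, adjusted p = 0.0301). The other 23 genes did not pass, among them Hmgcs1 (-0.11, -0.50 to 0.27) and Srebf2, the SREBP factor of sterol genes (-0.06, -0.31 to 0.19). Of the 18 sterol enzymes 2 passed, both at the lanosterol-to-cholesterol end. The count fell to 1 without wild-type SPF2, 5xFAD SPF2140, wild-type GF529, 5xFAD GF527 or 5xFAD GF531, to 2 without wild-type GF530 and to 3 without wild-type SPF1, SPF3, SPF4 or GF532 or 5xFAD SPF2142 or GF526; without 5xFAD GF527 none of the 5 passed. Adjusted p reached at most 0.119 for any of the 5, and none reversed in any alternative.

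Markers of other cells moved with the same comparison. Astrocyte markers summed to 233 to 304 CPM in wild-type SPF and 315 to 432 CPM in wild-type GF, and to 238 to 309 and 469 to 473 CPM in 5xFAD SPF and GF. In the averaged contrast 1 of the 5 astrocyte genes tested was called higher, Slc1a3 (log2 0.64, adjusted p = 0.00216), while Gja1 was at 0 in both GF groups. Border macrophage markers summed to 11.3 to 27.3 CPM in wild-type SPF and 1.94 to 9.61 CPM in GF, and to 12.2 to 24.7 and 3.66 to 7.64 CPM in 5xFAD, with Pf4 called lower of 4 tested. Microglial markers summed to 47120 to 51470 CPM in wild-type SPF and 38630 to 39920 CPM in GF, and P2ry12 and Cx3cr1 were among those called lower. The part of these shifts in the results for the module was not tested.

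**Figure D3:**
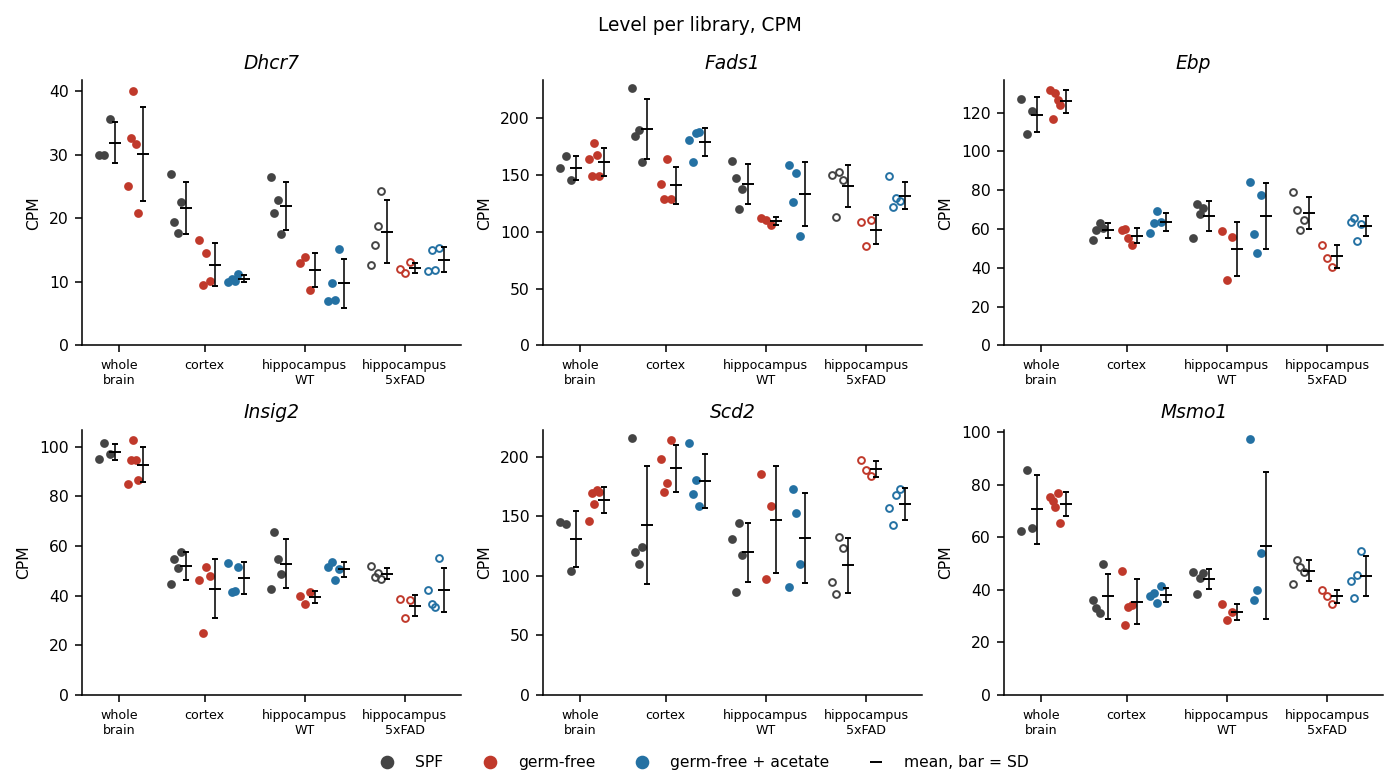
CPM of Dhcr7, Fads1, Ebp, Insig2, Scd2 and Msmo1 in each library (points; open for 5xFAD), with the group mean and SD, for SPF, GF and GF with acetate in each tissue. In cortex and wild-type hippocampus every Dhcr7 point of GF mice, with or without acetate, lies below every SPF point of that tissue. Of these Dhcr7 differences only cortex acetate against SPF passed, a call lost under 7 of 13 alternatives. Fads1 values with acetate lie near SPF in cortex.

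Acetate did not bring any gene of the module past the threshold in hippocampus. Against GF, 0 of 28 genes were called in wild type (edgeR; 6 at an unadjusted p under 0.05; 1 by DESeq2; 0.492% of all genes called) and 0 of 28 in 5xFAD (3 unadjusted; 0 by DESeq2; 0.082% of all). Against SPF, 0 of 28 were called in wild type (1 unadjusted; 1 by DESeq2; 0.123% of all) and 0 of 28 in 5xFAD (3 unadjusted; 0 by DESeq2; 0.0527% of all). Averaged over genotypes, acetate called 0 of 28 against GF (5 unadjusted, 1 by DESeq2, 1.85% of all) and 0 of 28 against SPF (3 unadjusted, 1 by DESeq2, 0.264% of all). The interaction of genotype with acetate called 0 of 28 genes and 0% of all (1 unadjusted, 0 by DESeq2).

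Dhcr7 with acetate had 6.98, 9.73, 7.15 and 15.1 CPM in wild type and 11.7, 15.04, 11.9 and 15.2 CPM in 5xFAD. All wild-type acetate libraries lay below all wild-type SPF libraries (log2 -1.17, -1.70 to -0.64, adjusted p = 0.0747, edgeR; DESeq2 called it). Fads1 with acetate had 159, 127, 152 and 96.8 CPM in wild type and 150, 122, 130 and 127 CPM in 5xFAD. Its log2 difference from GF was 0.28 (-0.03 to 0.58) in wild type and 0.35 (0.05 to 0.66) in 5xFAD, and that from SPF was -0.08 (-0.37 to 0.20) and -0.10 (-0.38 to 0.19). Ebp differed from GF by 0.42 (0.02 to 0.81) in wild type and 0.41 (0.01 to 0.80) in 5xFAD, and Insig2 by 0.35 (0.03 to 0.68) and 0.22 (-0.11 to 0.54); none of these passed. Msmo1 had 97.2, 36.0, 40.0 and 54.1 CPM with acetate in wild type, all above the GF values given above (0.84, 0.35 to 1.33, adjusted p = 0.115; DESeq2 called it). The highest value was that of GFA518, and the other 3 libraries ran from 36.0 to 54.1 CPM. Sc5d, the sterol desaturase just before Dhcr7, had 15.5, 22.96, 20.6 and 20.1 CPM in 5xFAD SPF and 36.04, 38.65, 35.6 and 33.1 CPM with acetate, without overlap (0.86, 0.28 to 1.43, adjusted p = 0.384). The acetate comparisons share their GF and SPF libraries with the GF comparison above.

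Between 5xFAD and wild-type hippocampus microglia, no gene of the module passed in any condition. In SPF 0 of 28 were called (edgeR; 0 at an unadjusted p under 0.05; 0 by DESeq2), against 0.568% of all genes. In GF 0 of 28 were called (5 unadjusted; 1 by DESeq2, Mvk), against 0.756% of all, and with acetate 0 of 28 (3 unadjusted; 1 by DESeq2, Srebf2), against 2.51% of all. Mvk, the mevalonate kinase, had 3.96, 1.82 and 4.11 CPM in wild-type GF and 10.48, 10.26 and 7.67 CPM in 5xFAD GF, without overlap (log2 1.52, 0.76 to 2.28, adjusted p = 0.0518). In SPF its values were 7.63, 3.92, 4.05 and 6.07 CPM in wild type and 5.10, 5.30, 5.23 and 7.44 CPM in 5xFAD, with overlap (0.10, -0.55 to 0.76). The interaction for Mvk was 1.42 (0.42 to 2.41, adjusted p = 0.802).

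Averaged over the 3 conditions, a contrast chosen after seeing the data, 2 of 28 genes passed and both were higher in 5xFAD. That share is close to the 6.96% of all genes called, so the module was not called more often than genes at large. Srebf2 ran from 21.7 to 35.1 CPM (median 31.6) in the 11 wild-type libraries and from 29.2 to 54.7 CPM (median 37.7) in the 11 libraries of 5xFAD mice. It was higher by 0.38 on the log2 scale (SE 0.10, adjusted p = 0.0165, edgeR), and passed under each alternative run. Mvk ran from 1.82 to 7.63 CPM (median 4.20) in wild type and from 5.10 to 10.49 CPM (median 7.67) in 5xFAD (log2 0.75, SE 0.19, adjusted p = 0.0173, lost without the filter on low counts). Both ranges overlapped between genotypes. Hmgcs1, at 0.27 (-0.04 to 0.57), Scd2, at 0.17 (-0.08 to 0.42), and Dhcr7, at 0.07 (-0.25 to 0.39), did not pass. Insig1, left out of the plot of genotype differences, did not pass either. It ran from 0 to 12.64 CPM (median 5.02) in wild type and from 4.88 to 16.37 CPM (median 9.60) in 5xFAD. The value of 0 was that of GFA518.

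Genes of sterol export, storage and LXR signalling were called beside them. Of 17 such genes tested, 2 were higher in 5xFAD in SPF, 3 in GF and 4 with acetate, and none was lower, beside the 0.568%, 0.756% and 2.51% of all genes called. Averaged over conditions 6 of 17 were higher and 2 lower, beside 6.96% of all genes; the lower ones were Abcg1, a sterol exporter (log2 -0.32, adjusted p = 0.00389, edgeR), and Lpcat3, a phospholipid acyltransferase (-0.30, 0.0464). Apoe, which carries cholesterol out of cells, had 336 ± 65.7 CPM in wild-type SPF and 3523 ± 2434 CPM in 5xFAD SPF (SD, n = 4 each; log2 3.39, SE 0.50, adjusted p = 0.00376, edgeR). The Apoe difference was 3.35 in GF and 3.42 with acetate, and the call was lost in SPF when only those 2 groups were fitted and in GF without wild-type GF530 or GF532. Ch25h, which makes an oxysterol and was near 0 in wild type, was the other gene called in SPF and was also called with acetate, but the SPF call was lost under 12 of 15 alternatives. Among mice given acetate, Nceh1, which frees cholesterol from its stored esters, had 23.04 ± 6.05 CPM in wild type and 85.2 ± 10.7 CPM in 5xFAD (log2 1.88, SE 0.28, adjusted p = 0.000422, edgeR). Npc2, a lysosomal cholesterol carrier, had 352 ± 21.5 CPM in wild type and 614 ± 53.0 CPM in 5xFAD (0.80, SE 0.12, 0.000587). Both were also called higher in 5xFAD among GF mice without acetate (Nceh1 log2 1.56, adjusted p = 0.0188, and Npc2 0.65, 0.0284, edgeR). Each of these GF calls was lost under 6 of 13 alternatives. Lipogenic genes outside the module were called too: with acetate 2 of 15 were higher in 5xFAD, Acaca, the acetyl-CoA carboxylase (6.30 ± 2.86 to 31.2 ± 4.84 CPM, 2.30, SE 0.33, 0.000347), and Fasn, the fatty acid synthase (18 ± 7.47 to 46.6 ± 8.33 CPM, 1.37, SE 0.28, 0.00777). Fasn was also called lower in wild-type hippocampus with acetate against GF (log2 -1.30, SE 0.30, adjusted p = 0.0485, edgeR), a call lost under 9 of 14 alternatives. Between genotypes with acetate, 0 of the 18 sterol enzymes of the module passed (edgeR, 1 at an unadjusted p under 0.05, and DESeq2 called none of them). Their median log2 difference was 0.09, beside 0.00 over all genes. With acetate the microglial markers P2ry12 and Cx3cr1 were also called, lower in 5xFAD, as were Pf4 and Flt1, higher, 1 of 4 border macrophage and 1 of 2 endothelial genes tested. Border macrophage markers summed to 0.868 to 10.1 CPM in wild type and 10.2 to 23.8 CPM in 5xFAD, and endothelial markers to 13.9 to 37.6 and 14 to 30.4 CPM; in the averaged contrast 4 of 7 microglial markers were lower, Pf4, Flt1 and Gfap higher and Mobp lower. Their part in these results was not tested.

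**Figure D4:**
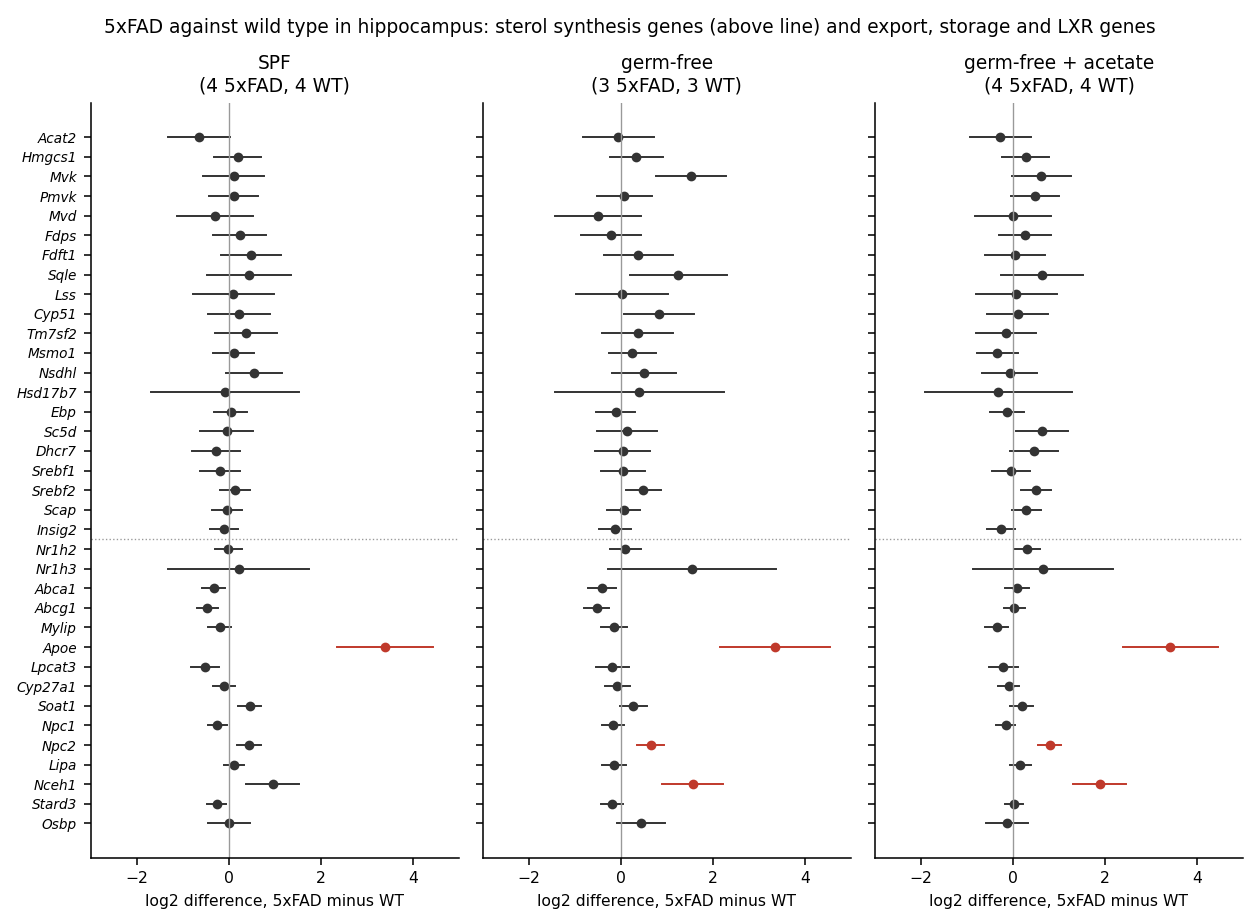
Fitted log2 difference, 5xFAD minus wild type, with its 95% interval in hippocampus microglia of SPF, GF and acetate-treated GF mice, for 21 genes of the module (above the dotted line) and 15 export, storage and LXR genes; Idi1, Insig1, Stard4, the fatty acid genes, Ch25h and Apoc1 are not drawn. No gene above the line passed, and Apoe passed in all 3 conditions (red).

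GF status was also called for a few neighbours of the pathway. In whole brain 2 of 17 export and LXR genes were higher in GF and 1 lower, against 1.99% of all genes called. Mylip, the LXR-driven ligase that degrades the LDL receptor, fell from 387 ± 8.57 to 288 ± 11.1 CPM (log2 -0.42, SE 0.05, adjusted p = 0.000909). Nceh1 rose from 17.7 ± 2.66 to 36.2 ± 5.18 CPM (1.03, SE 0.15, 0.00331; lost with a replicate block) and Apoe from 289 ± 43.0 to 736 ± 211 CPM (1.35, SE 0.21, 0.0103; lost without the filter and without SPF1, SPF3 or SPF4). Apoe was also higher in GF cortex (308 ± 44.2 to 728 ± 263 CPM, 1.24, SE 0.22, 0.00856; lost without the filter and without SPF1). Ggps1, which makes geranylgeranyl diphosphate for protein prenylation, fell from 50.2 ± 7.25 to 33.04 ± 2.95 CPM (-0.60, SE 0.13, 0.0252) as the 1 of 11 isoprenoid genes called; the call was lost with a replicate block and without SPF1, SPF4, GF2 or GF4. Mylip also fell in GF hippocampus of wild type (371.9 ± 37.3 to 229 ± 29.5 CPM, -0.68, 0.0174) and of 5xFAD (322 ± 12.9 to 207 ± 14.7 CPM, -0.63, 0.0098), lost without SPF4, GF529 or GF530 in wild type and without GF527 in 5xFAD.

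Between regions of the same animals, 2 of 28 genes of the module were lower in hippocampus than in cortex and none was higher, against 12.5% of all genes. Fads1 ran from 129 to 227 CPM (median 181) in the 11 cortex libraries and from 96.8 to 162 CPM (median 127) in the 11 hippocampus libraries, and was lower in hippocampus in 11 of 11 animals (log2 -0.41, SE 0.07, adjusted p = 0.00247). Scap, which escorts SREBP to the Golgi, ran from 65.5 to 101 CPM (median 77.0) in cortex and from 46.9 to 83.0 CPM (median 61.8) in hippocampus, lower in 10 of 11 animals (-0.33, SE 0.07, 0.00608). Its exons overlap those of a predicted gene on the other strand. Both calls held in every alternative run, with adjusted p up to 0.014 for Fads1 and 0.0323 for Scap. Scd2 was lower in 8 of 11 animals (-0.37, -0.62 to -0.11, adjusted p = 0.0608). None of the 18 sterol enzymes passed (edgeR; 0 at an unadjusted p under 0.05), and 16 of 18 intervals lay within 2-fold, such as those of Ebp (0.00, -0.21 to 0.21) and Dhcr7 (-0.03, -0.31 to 0.25).

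**Figure D5:**
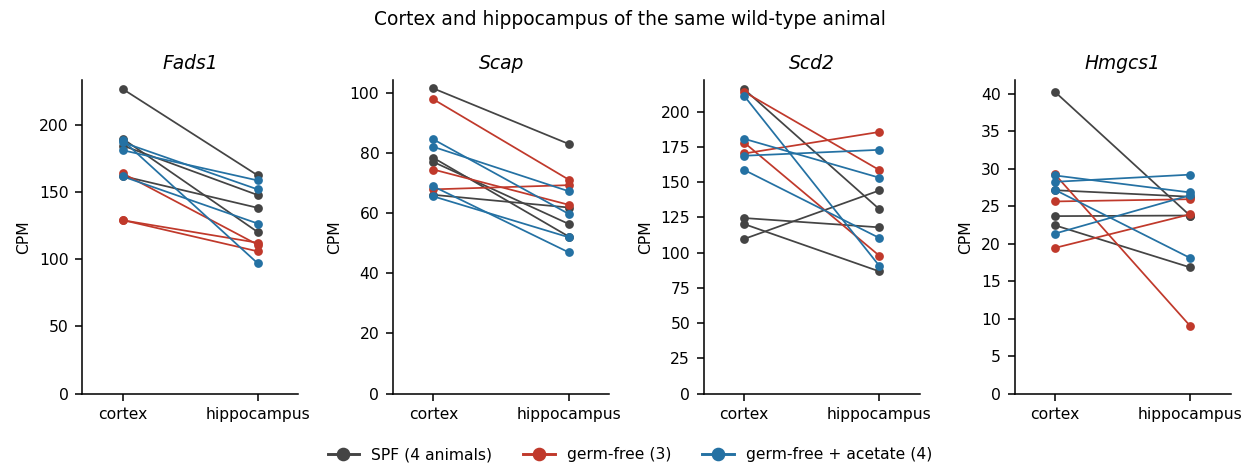
CPM of Fads1, Scap, Scd2 and Hmgcs1 in cortex and hippocampus microglia of 11 wild-type animals; each line joins the 2 libraries of 1 animal, coloured by condition. All 11 Fads1 lines and 10 of 11 Scap lines fall from cortex to hippocampus, while Hmgcs1 falls in 6 and rises in 5.

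SREBP processing genes had their own calls between regions. Mbtps1, the first protease that cuts SREBP, was lower in hippocampus (log2 -0.32, SE 0.06, adjusted p = 0.00239), and Mbtps2, the second, was higher (0.45, SE 0.11, 0.0135). Of 14 other SREBP targets and lipogenic genes tested, 4 were lower and none higher, against 12.5% of all genes called between regions. They were led by Acly, which makes cytosolic acetyl-CoA from citrate (-0.48, SE 0.06, 0.000342). Lpin1 (-0.34) and Acsl3 (-1.10) were lower as well, and Gpam (-0.56) lost its call without animal GF530. Oligodendrocyte markers summed to 152 to 204 CPM in cortex and 139 to 171 CPM in wild-type hippocampus, with Cnp called lower of 6 tested. Of the microglial markers Csf1r and Tmem119 were called lower, and Slc1a3, Mrc1 and Pecam1 of the astrocyte, border macrophage and endothelial lists were called lower. The part of these shifts in the region results was not tested.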

How the data were processed

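The deposited files are 2 tables of raw counts per gene, one for whole brain and one for cortex and hippocampus. Per the submitters' processing notes the authors used STAR 2.5.2b and featureCounts 1.5.1, and the notes name the human build GRCh38 although the gene symbols are those of mouse; whether counting used strand is not given in the sources used here. From these counts TMM-scaled CPM values were computed. Genes were kept with filterByExpr (minimum count 10) and tested with edgeR 4.0.16 (quasi-likelihood, robust, two-sided) in R 4.3.3, with Benjamini-Hochberg adjustment over all genes of a fit and a threshold of 0.05. Every member was named, and of each other pathway list at most 3 genes past the threshold per comparison, by smallest p; Ch25h with acetate, Gpam, Abcg1 and Lpcat3, outside that limit, were chosen after their values were seen. Exon lengths were from GENCODE M21. The members and lists were chosen with earlier results of these data known. The samples of a group are separate libraries, and p-values measure the spread between them.

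Cortex and hippocampus libraries of 1 animal, paired by label, were fitted with the animal as a block; the correlation of their deviations ran from 0.027 to 0.115, over 0.1 for 4 of 11 animals. Replicates of a group differed by more than sampling noise in all 61 pairs. Depth per sample was 5.74 to 25.37 M counts. Alternatives were DESeq2 1.42.0, RLE size factors, no filter, a mean of at least 5 CPM, fits of only the groups compared, libraries left out, and the block added or removed. The scripts were tested on simulated data. Results for some genes are not reported here.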

Additional observations from a re-analysis of the deposited data

Results flagged for a closer look

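Within groups of 4 to 10 libraries, 16 of 222 combinations of gene and group (7.21%) held a library far from the rest by Dixon's test; chance alone marks about 1 in 20 groups. In whole-brain GF microglia, Acat2 was 8.13 CPM in GF3 against 13.13 to 15.01 CPM in the others, Srebf2 was 17.34 CPM in GF3 against 22.28 to 24.26, and Mvk was 6.208 CPM in GF5 against 3.61 to 4.156.

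In cortex, Scd2 was 215.8 CPM in SPF1 against 109.7 to 124.5 CPM in the other SPF libraries. Idi1 was 1.19 CPM in GF532 against 0.3138 to 0.3511, and Lss was 13.04 CPM in GFA524 against 11.48 to 11.61.

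In wild-type SPF hippocampus, the shallow library SPF4 had 1.853 CPM of Sqle against 3.35 to 3.502 and 12.64 CPM of Insig1 against 4.543 to 5.264. SPF2 had 6.747 CPM of Nsdhl against 13.63 to 15 and 25.55 CPM of Srebf2 against 33.09 to 33.63. With acetate, Fdft1 was 5.428 CPM in GFA524 against 9.813 to 10.24, and Fads2 was 3.512 CPM in GFA518 against 0 to 0.1119.

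In 5xFAD hippocampus, Mvk was 7.436 CPM in SPF2153 against 5.1 to 5.299, and Fads1 was 113.2 CPM in the shallow library SPF2142 against 146 to 152.4. With acetate, Cyp51 was 28.85 CPM in GFA522 against 13.51 to 15.57, and Srebf2 was 54.68 CPM in GFA519 against 39.46 to 42.06.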

How the results depend on the processing

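Over 45 gene results, 728 values were recomputed under the alternatives: 585 kept their side of the threshold, 143 lost the call and 0 reversed, and 19 results kept their call throughout. The number of members called in cortex GF against SPF was 1 and became 3 with DESeq2, 2 without the filter, 2 when a 5 CPM mean was required, and 0 with RLE size factors or only the groups compared; leaving out 1 library gave 0 to 1. For cortex acetate against SPF, leaving out 1 library gave 0 to 1. DESeq2 called 1 member in place of 0 in wild-type hippocampus for GF against SPF, acetate against GF and acetate against SPF, and leaving out 1 library gave 0 to 1 in each. In 5xFAD GF against SPF the count was 1 in place of 0 with DESeq2, RLE size factors, a mean of at least 5 CPM, only the groups compared, or without GFA518 and GF530, and 0 to 1 with 1 library left out. The contrast averaged over genotypes called 5 for GF against SPF, but it is 1 pooled test and gives no count for either genotype alone.

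Between genotypes in GF mice, DESeq2, RLE size factors and the 5 CPM mean each gave 1 in place of 0, and 1 library left out 0 to 1. With acetate DESeq2 gave 1. The contrast averaged over conditions called 2, but it is 1 pooled test and gives no count for SPF, GF or acetate alone. The region count of 2 became 4 without the filter. The averaged GF count of 5 became 2 without the filter, 3 without the shallow libraries, 3 when GF530 and GFA518 were dropped, and 1 to 4 with 1 library left out. Averaged acetate against GF and against SPF each gave 1 with DESeq2, 1 at the 5 CPM mean (against SPF only), and 0 to 1 with 1 library left out. The averaged genotype count of 2 became 1 without the filter, 3 with DESeq2 and 3 when GF530 and GFA518 were dropped, and 2 to 3 with 1 library left out.

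With the whole-brain replicate numbers as a block, 0 members were called, as without it, and the calls of Ggps1 and Nceh1 were lost; same-numbered libraries did not deviate together (correlations from -0.037 to -0.003). Without the replicate block, 2 members were called between regions. The block changed no other call. Genes under 1 CPM, such as Scd1 and Fads2, and the shallow hippocampus libraries limit what differences were detectable, and within a genotype or condition of hippocampus 13 to 18 of 28 intervals stayed within 2-fold.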
